A study of Mus musculus with 8 samples.

Results

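Transcripts of the voltage-gated sodium channel subunits were followed in cultured mouse neurons that carried or lacked *Nuak1*, which encodes a kinase related to AMPK. The members were 7 genes picked by name among the 32726 gene identifiers of the count table. They comprised 4 pore-forming alpha subunits (*Scn1a*, *Scn2a*, *Scn3a* and *Scn8a*) and 3 auxiliary beta subunits (*Scn2b*, *Scn3b* and *Scn4b*). Expression was high enough for testing in 6 of the 7, and *Scn4b* was left out by the filter on low counts. Poly-A RNA was sequenced from 4 knockout (KO) and 4 wild-type (WT) cultures after 5 days in vitro. Libraries are called KO1 to KO4 or WT1 to WT4, with the numbers that the labels give the replicates. The comparison asks how loss of NUAK1 alters transcripts at a stage when axons grow.

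KO cells carried a constitutive deletion of *Nuak1*, present in every cell of the embryo, and WT cells came from mice without it. The study's methods describe serum-free cultures prepared from the embryonic cortex, and the tissue label of every library reads "cortex or hippocampus". The cell type label is neurons for all 8 libraries. A strain label set KO1, KO2 and KO3 (BJ), WT1 (BO) and WT3 (BQ) apart from KO4, WT2 and WT4 (BK), without saying what the codes mean. Only BK held both genotypes, so outside BK the strain label and the genotype cannot be told apart. KO mice die at birth, and no later stage was sampled.

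Voltage-gated sodium channels open when the membrane depolarizes and carry the inward current of the action potential. Each channel holds a single large alpha subunit, which forms the pore, the voltage sensors and the inactivation gate. The beta subunits have a single membrane span and an immunoglobulin-like domain, and they tune gating, surface expression and cell adhesion. In developing forebrain neurons *Scn3a* is the alpha subunit best known from embryonic stages. *Scn2a* is the main alpha subunit of young excitatory axons, *Scn8a* takes over at the axon initial segment and nodes of Ranvier during maturation, and *Scn1a* is best known from inhibitory interneurons. The channels cluster at the axon initial segment by binding ankyrin-G, the product of *Ank3*.

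The alpha subunits share much of their coding sequence, which matters for counts made from uniquely aligned reads. In the GENCODE transcripts of the NCBIM37 build, 5.48% of the 50-base windows of *Scn1a*, 7.93% of those of *Scn2a* and 8.53% of those of *Scn3a* also occurred in a transcript of another gene, against 0.0551% for *Scn8a*. At 100 bases the shares were 1.22% for *Scn1a*, 1.54% for *Scn2a*, 2.95% for *Scn3a* and 0 for *Scn8a*. Reads from such windows align to several places and were not counted, so the counts of *Scn1a*, *Scn2a* and *Scn3a* leave out a small part of each transcript. Among the beta subunits, 0.820% of the 50-base windows of *Scn2b* occurred elsewhere, and none of those of *Scn3b* or *Scn4b*.

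*Scn3a* (ENSMUSG00000057182, chr2:65457118-65567591), *Scn2a* (ENSMUSG00000075318, listed as Scn2a1, chr2:65620764-65767447) and *Scn1a* (ENSMUSG00000064329, chr2:66270781-66440837) lie in 1 cluster on chromosome 2 of the GRCm38 build. *Scn8a* (ENSMUSG00000023033) lies apart from them, at chr15:100869863-101045938. The 3 beta subunits lie on chromosome 9, with *Scn3b* (ENSMUSG00000049281) at chr9:40269216-40291618. *Scn2b* (ENSMUSG00000070304, chr9:45117876-45130070) and *Scn4b* (ENSMUSG00000046480, chr9:45138624-45154155) are neighbours.

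RefSeq promoter windows (GRCm38.p6) were found for *Scn1a*, *Scn2a*, *Scn8a*, *Scn2b* and *Scn4b*. The 250 bases before the start of transcription are printed for *Scn2a* and *Scn1a*, the members with the smallest p-values below. *Scn2a* has a distal start (chr2:65620519-65620768, plus strand) and a proximal start (chr2:65668436-65668685, plus strand), and the *Scn1a* window lies at chr2:66440838-66441087 on the minus strand. Capitals mark the only match to the motifs searched.
Scn2a distal: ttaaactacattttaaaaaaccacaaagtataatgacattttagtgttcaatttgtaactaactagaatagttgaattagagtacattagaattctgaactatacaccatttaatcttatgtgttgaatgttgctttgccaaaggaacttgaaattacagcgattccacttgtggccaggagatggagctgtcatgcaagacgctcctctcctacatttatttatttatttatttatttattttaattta
Scn2a proximal: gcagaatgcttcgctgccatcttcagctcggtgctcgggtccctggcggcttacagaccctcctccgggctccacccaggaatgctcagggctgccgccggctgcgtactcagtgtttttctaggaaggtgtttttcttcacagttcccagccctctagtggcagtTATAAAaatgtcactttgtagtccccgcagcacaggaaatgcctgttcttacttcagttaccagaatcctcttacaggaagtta
Scn1a: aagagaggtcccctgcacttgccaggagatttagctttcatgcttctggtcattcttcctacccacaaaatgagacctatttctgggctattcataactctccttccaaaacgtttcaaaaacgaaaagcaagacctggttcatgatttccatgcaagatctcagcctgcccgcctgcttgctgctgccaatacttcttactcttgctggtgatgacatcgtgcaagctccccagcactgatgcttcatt

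The windows of the 5 genes were searched on both strands for TATAAA, the GC box GGGCGG, the cAMP response element TGACGTCA, the E-box CACGTG, and the left part TTCAGCACC and right part GGACAGC of the RE1 element bound by REST. TATAAA occurred 84 bases before the proximal start of *Scn2a*, and 12.4% of 32851 RefSeq promoters of the same length hold it. None of the other windows held any of the 6 motifs. The shares over all promoters were 32.7% for GGGCGG, 6.02% for CACGTG, 5.28% for GGACAGC, 1.55% for TGACGTCA and 0.301% for TTCAGCACC. The distal *Scn2a* window held 29.6% G and C, the proximal 53.2% and the *Scn1a* window 46.8%.

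Libraries held 31247078 to 67155004 counts, with a median of 39224504. *Nuak1* itself checked the labels, with 52.9 to 82.4 CPM (counts scaled by TMM to a common library size) in WT and 1.92 to 2.64 CPM in KO (log2 fold change −4.89, SE 0.13, edgeR quasi-likelihood test with Benjamini-Hochberg (BH) adjusted p = 1.24e-07). KO1 and WT1 stood apart from the other 6 libraries. Their values on the surrogate variable that the model carried for unwanted variation were −0.558 and −0.621, against 0.048 to 0.392. They shared lane A with KO4 and WT3, which did not stand apart, and lane B held KO2, KO3, WT2 and WT4.

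Transcript levels per kilobase of exon, the scale on which genes can be compared, spanned over 3 orders of magnitude among the members. *Scn3b*, a beta subunit abundant early in brain development, was highest at 101.7 ± 13.4 CPM per kb (SD, n = 8, range 86.3 to 127). *Scn2a* came next at 39.6 ± 8.54 CPM per kb. *Scn3a* at 20.7 ± 3.79 and *Scn8a* at 20.6 ± 2.19 CPM per kb could not be ordered, with *Scn3a* above *Scn8a* in 5 of 8 libraries. *Scn2b* had 9.22 ± 0.897 CPM per kb and lay above *Scn1a*, at 7.45 ± 1.61 CPM per kb, in 7 of 8 libraries, a gap about the size of the spread. Each other neighbour in this order was separated in 8 of 8 libraries. Lengths here are unions of exons, and the longest transcripts of *Scn3a* (9560 bases) and *Scn1a* (8386 bases) are shorter than these. The places of *Scn3a* beside *Scn8a* and of *Scn1a* beside *Scn2b* therefore depend on the length used. *Scn4b* closed the order at 0.0245 ± 0.0204 CPM per kb.

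**Figure D1:**
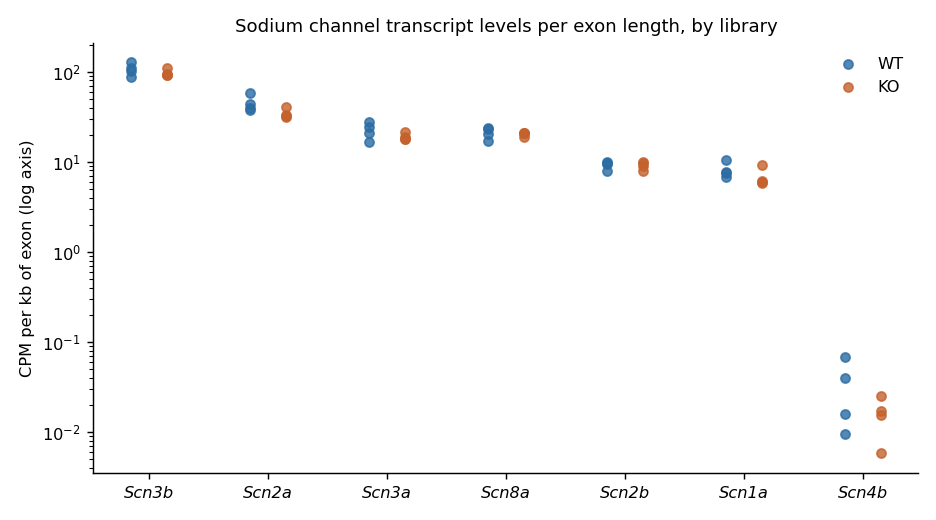
Transcript level of each of the 7 subunits in CPM per kb of exon on a log axis, with 1 point per library (blue, WT; orange, KO). *Scn3b* lay highest in every library, *Scn3a* and *Scn8a* overlapped, and *Scn4b* stayed at or below 0.0678 CPM per kb.

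*Scn4b*, a beta subunit known for resurgent current in mature neurons, was close to undetected. WT1 to WT4 had 6, 3, 16 and 3 counts of it, and the 4 KO cultures had 1, 3, 4 and 5. A count of 0 allows up to 3 counts, or 0.0468 to 0.0985 CPM in these libraries. Most libraries thus sat near that limit, WT3 was the exception, and no fold is given for this gene.

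The genotype comparison of the 6 tested members gave a log2 fold change (KO minus WT) below 0 for 6 of 6, with a median of −0.18, against 0.015 for all 16272 tested genes. Below 0 lay 46.2% of all tested genes. None of the members passed a BH adjusted p of 0.05 in edgeR, where 8 genes (0.0492% of those tested) did so in either direction and 6 (0.0369%) were lower in KO. DESeq2 called 1 member, *Scn2a*, where it called 1.26% of the genes it adjusted as lower in KO. At an unadjusted p under 0.05, *Scn2a*, *Scn1a* and *Scn3a* were lower in KO, 3 of 6 tested members, against 5.75% of all tested genes in that direction and 10.6% in either. With the study's fold threshold added (log2 fold change under −0.25), *Scn2a* and *Scn1a* were left, against 3.53% of all tested genes. In the edgeR fit without the surrogate variable only *Scn2a* stayed under an unadjusted p of 0.05, *Scn1a* having 0.196 and *Scn3a* 0.173. The members are few and 3 of them are neighbours of one family, so these shares are descriptions.

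**Figure D2:**
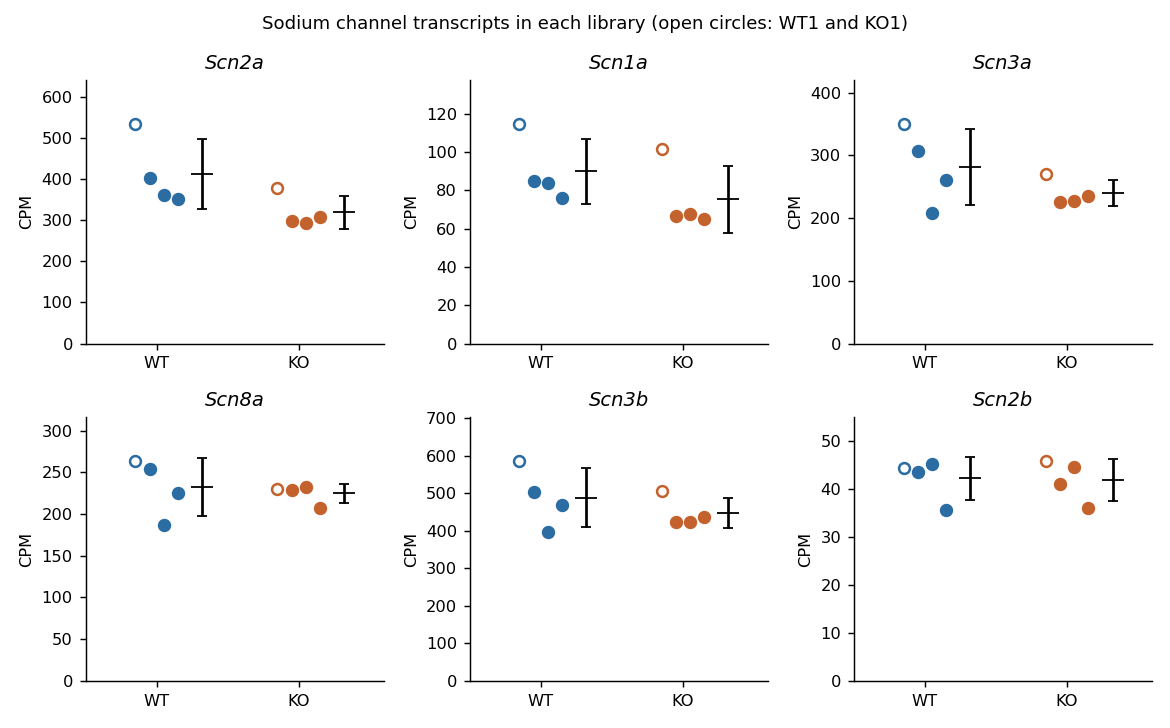
CPM of the 6 tested subunits in each library, with the mean and SD beside each group (blue, WT; orange, KO; open circles, WT1 and KO1). For *Scn2a* and *Scn1a* the 3 filled KO points lay below the 3 filled WT points, while the open KO1 point lay among the WT points.

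*Scn2a*, the alpha subunit of young excitatory axons, had the smallest p among the members and ranked 37 among all tested genes. It had 535, 404, 363 and 351 CPM in WT1 to WT4, and 379.7, 297, 294 and 309 CPM in KO1 to KO4. KO1 exceeded WT3 and WT4, so the groups overlapped, and the other 3 KO libraries lay below every WT library. The means were 413 ± 84.5 CPM in WT and 319.9 ± 40.4 CPM in KO (SD, n = 4 each). The fitted difference was −22.8%, a log2 fold change of −0.37 (SE 0.073, 95% interval −0.54 to −0.21), with an edgeR BH adjusted p of 0.199 from an unadjusted 0.00046. DESeq2, also the tool of the study, gave −0.38 and a BH adjusted p of 0.00211 with the same surrogate variable. Without the filter on low counts, edgeR gave a BH adjusted p of 0.0465. Without the surrogate variable the edgeR SE was 0.15 and the BH adjusted p 0.999957, and with a replicate block in its place the BH adjusted p was 0.565. Fitted within lanes without a surrogate variable, with 2 libraries against 2, the difference was −0.39 (SE 0.29) in lane A and −0.36 (SE 0.092) in lane B. In this bulk RNA, fewer cells expressing a channel and less channel RNA per cell cannot be told apart.

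*Scn1a*, known above all from inhibitory interneurons, had 115, 85.0, 83.8 and 76.0 CPM in WT1 to WT4. KO1 to KO4 had 102, 66.7, 67.9 and 64.9 CPM. As for *Scn2a*, KO1 alone reached into the WT range, and the other KO libraries lay within a narrow band below it. Mean levels were 89.9 ± 17.1 CPM in WT and 75.3 ± 17.6 CPM in KO (SD, n = 4 each). The log2 fold change was −0.28 (SE 0.080, 95% interval −0.46 to −0.11), or −17.9%, with an edgeR BH adjusted p of 0.332 and a DESeq2 BH adjusted p of 0.0998. The values within lanes were −0.26 (SE 0.33) in lane A and −0.27 (SE 0.094) in lane B.

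*Scn3a*, the alpha subunit of embryonic neurons, spread more among WT cultures. WT1 to WT4 had 350.4, 307, 209 and 261 CPM, and KO1 to KO4 had 270.2, 226, 227 and 236 CPM. WT3 lay below every KO library and KO1 above WT4, so the groups overlapped from both sides. The means were 282 ± 60.8 CPM in WT and 239.8 ± 20.7 CPM in KO (SD, n = 4 each). The log2 fold change of −0.23 (SE 0.095, 95% interval −0.44 to −0.018) had an edgeR BH adjusted p of 0.447, and it was −0.15 (SE 0.33) in lane A and −0.33 (SE 0.093) in lane B.

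*Scn8a*, the alpha subunit of mature initial segments and nodes, differed little between genotypes. WT1 to WT4 had 263, 253, 186 and 225 CPM, and KO1 to KO4 had 229.8, 229, 232 and 207 CPM. All 4 KO values lay inside the WT range, with means of 232 ± 34.6 CPM in WT and 225 ± 11.6 CPM in KO (SD, n = 4 each). The log2 fold change was −0.048 (SE 0.088, edgeR BH adjusted p = 0.874), with a 95% interval from −0.24 to 0.15. Leaving out KO1 or WT2 turned its sign.

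Among the beta subunits, *Scn3b* had 586, 504, 397 and 468 CPM in WT1 to WT4 and 506, 425, 423 and 437 CPM in KO1 to KO4. As for *Scn3a*, WT1 was highest, WT3 lowest, and the KO libraries lay inside the WT range. The means were 489 ± 78.6 CPM in WT and 448 ± 39.2 CPM in KO (SD, n = 4 each), a log2 fold change of −0.13 (SE 0.072, 95% interval −0.29 to 0.029, edgeR BH adjusted p = 0.545). *Scn2b*, a beta subunit that is disulfide-linked to the alpha subunit, had 44.5, 43.5, 45.2 and 35.6 CPM in WT1 to WT4 and 45.8, 41.0, 44.7 and 36.1 CPM in KO1 to KO4. Its ranges nearly coincided, the means being 42.2 ± 4.45 CPM in WT and 41.9 ± 4.39 CPM in KO (SD, n = 4 each). The log2 fold change of −0.016 (SE 0.096, 95% interval −0.23 to 0.20, edgeR BH adjusted p = 0.966) took the opposite sign in several alternatives, and was −0.13 (SE 0.25) in lane A and 0.10 (SE 0.12) in lane B.

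**Figure D3:**
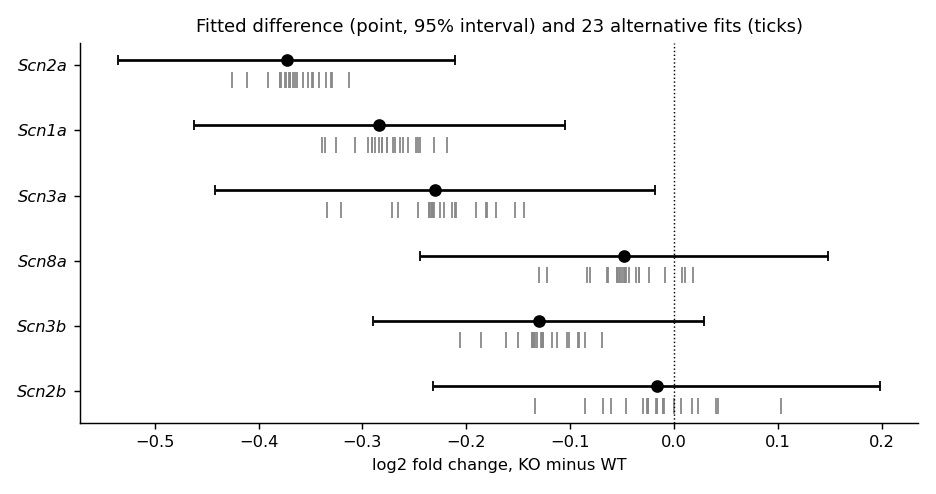
Fitted log2 fold change (KO minus WT) of the 6 tested subunits, with points for the estimate, bars for its 95% interval and grey ticks for 23 alternative fits. *Scn2a*, *Scn1a*, *Scn3a* and *Scn3b* stayed below 0 in 23 of 23, whereas ticks of *Scn8a* and *Scn2b* fell on both sides of 0.

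KO1 and WT1 were high together for *Scn1a*, *Scn2a*, *Scn3a* and *Scn3b*, whatever their genotype. None of the members had KO libraries entirely below WT libraries over all 8, nor the reverse, as 1.12% and 1.17% of tested genes had. An alternative added after these values were seen left KO1 and WT1 aside, and *Scn1a* and *Scn2a* then no longer overlapped, KO being lower. Of all tested genes, 4.76% did so in that direction and 5.44% with KO higher, and none of the members did the latter. In the fit without these libraries and without a surrogate variable, *Scn2a* had a log2 fold change of −0.31 (SE 0.086) and *Scn1a* of −0.29 (SE 0.080), both with an edgeR BH adjusted p of 0.980.

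The make-up of the alpha subunit pool was compared within libraries, since a ratio of transcripts in 1 library does not depend on its depth. *Scn2a* made up 46.4 ± 2.54% of the summed alpha subunit level (CPM per kb) in WT and 42.7 ± 1.45% in KO (SD, n = 4 each). *Scn8a* made up 22.0 ± 1.83% in WT and 25.3 ± 2.27% in KO. The shares of *Scn3a* (23.2 ± 1.78% in WT, 23.6 ± 0.537% in KO) and *Scn1a* (8.46 ± 0.745% in WT, 8.34 ± 1.06% in KO) were close to each other between genotypes. The size of each share depends on the exon lengths used.

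**Figure D4:**
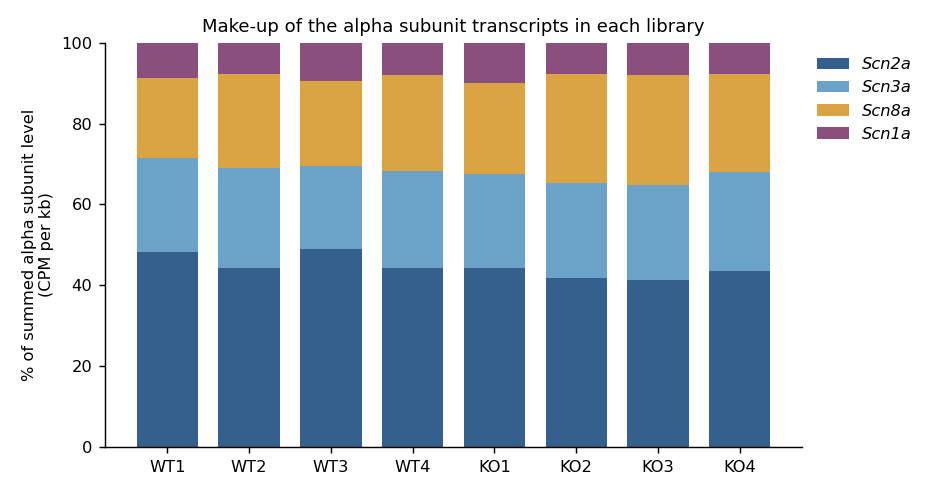
Share of each alpha subunit in the summed alpha subunit level of a library (CPM per kb of exon, in percent), with 1 bar per library. *Scn2a* formed 41.3% to 48.9% of the pool and *Scn1a* 7.64% to 9.92%.

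The log2 ratio of *Scn8a* to *Scn2a* counts, which increases as neurons mature, was −1.02, −0.67, −0.96 and −0.64 in WT1 to WT4. In KO1 to KO4 it was −0.72, −0.37, −0.34 and −0.57. Only KO1 fell within the WT range, and the difference of 0.32 in the group means had p = 0.0857 in a two-sided exact permutation test, or 0.343 after BH adjustment over the 4 ratios. With 4 libraries against 4 the smallest possible p is 0.0286. The log2 ratio of *Scn2a* to *Scn3a* averaged 0.56 ± 0.19 in WT and 0.41 ± 0.054 in KO (difference −0.15, exact permutation p = 0.171, BH 0.343). That of *Scn1a* to *Scn3a* was −1.64 ± 0.24 in WT and −1.69 ± 0.20 in KO (difference −0.054, exact permutation p = 0.714, BH 0.714). That of *Scn2b* to *Scn3b* was −3.53 ± 0.27 in WT and −3.42 ± 0.15 in KO (difference 0.11, exact permutation p = 0.486, BH 0.648). None of the 4 ratios passed the threshold of 0.05.

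*Scn3a*, *Scn2a* and *Scn1a* are neighbours, and the genes around them were listed after the members' values were known. The interval chr2:65457118-66784910 holds 15 RefSeq genes, of which 8 were tested. Besides the members, *Csrnp3*, a transcription factor gene that lies between *Scn2a* and *Scn1a*, had a log2 fold change of −0.15 (SE 0.061, edgeR BH adjusted p = 0.448). Its unadjusted edgeR p was 0.0385, and 5.75% of all tested genes were lower in KO at an unadjusted p under 0.05. *Ttc21b*, needed for transport in cilia, had −0.098 (edgeR BH adjusted p = 0.619). *Galnt3*, which starts O-glycosylation, had −0.24 with an SE of 0.25 (edgeR BH adjusted p = 0.757). The long non-coding RNA *Gm13630*, on the strand opposite to *Scn1a* and inside it without exon overlap, had 0.053 (SE 0.17, edgeR BH adjusted p = 0.935). Its position matters because the methods do not say whether counting used the strand.

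Of the 7 other sodium channel genes listed, 5 are described here, and these 5 were low or undetected. *Scn9a*, a pain channel gene of sensory neurons between *Scn1a* and *Scn7a* on chromosome 2, had 8.61, 1.87, 7.68 and 2.05 CPM in WT1 to WT4 and 3.58, 5.03, 2.58 and 2.43 CPM in KO1 to KO4. WT1 and WT3 stood above all other libraries, and the log2 fold change of −0.56 had an SE of 0.52 (edgeR BH adjusted p = 0.727). *Scn11a*, of sensory neurons, stayed under 1 CPM, with a log2 fold change of 0.29 (SE 0.44). *Scn7a* (5 to 14 counts), *Scn4a* of skeletal muscle (1 to 5 counts) and *Scn10a* of sensory neurons (0 to 2 counts) did not pass the filter. Of the 4 genes tested in this list, none was called by edgeR or DESeq2, none had an unadjusted p under 0.05, and the median log2 fold change was −0.13.

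The initial segment scaffold tethers the channels. Of 18 listed genes, all tested, 3 were lower and 1 higher in KO at an unadjusted p under 0.05, 14 did neither, and the median log2 fold change was 0.0030. Of all tested genes, 5.75% were lower and 4.87% higher by the same measure. None passed the adjusted threshold in edgeR or in DESeq2. *Ank3*, encoding the ankyrin-G that anchors the channels, had 1091, 1124, 849 and 975 CPM in WT1 to WT4 and 880.1, 838, 841 and 875 CPM in KO1 to KO4. WT3 lay among the KO libraries and the other WT libraries above them (log2 fold change −0.24, SE 0.088, edgeR BH adjusted p = 0.406). *Nrcam*, an adhesion molecule of the segment, had 903 ± 226 CPM in WT and 724 ± 58.7 CPM in KO (log2 fold change −0.31, SE 0.13). *Sptbn4*, encoding beta-IV spectrin, had −0.15 (SE 0.063), and *Csnk2b*, the regulatory subunit of casein kinase II, had 0.17 (SE 0.054).

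Proteins that bind or modify the channels formed the next list. Of 20 listed genes 19 were tested, with 1 lower and 3 higher in KO at an unadjusted p under 0.05, 15 neither, and a median log2 fold change of −0.033, beside 5.75% lower and 4.87% higher among all tested genes. *Dpysl2*, encoding the collapsin response mediator CRMP2, had 583 ± 34.3 CPM in WT and 677 ± 57.6 CPM in KO (SD, n = 4 each), a log2 fold change of 0.21 (SE 0.081, edgeR BH adjusted p = 0.410). The kinase genes *Prkaca* and *Mapk14* had 0.19 (SE 0.068) and 0.15 (SE 0.060). *Cntn1*, a contactin that associates with beta subunits, had −0.25 (SE 0.11). None of these passed the adjusted threshold in edgeR or DESeq2.

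The 7 genes of the proteases that cleave beta subunits, beta-secretase, gamma-secretase and ADAM10, were all tested. Their log2 fold changes lay below 0 in 5 of 7, against 46.2% of all tested genes, with a median of −0.081. At an unadjusted p under 0.05, 1 of the 7 was lower in KO and none higher, against 5.75% and 4.87% of all tested genes. Among 14 regulators of channel transcripts, including *Rest* and the splicing factors of the Rbfox, Nova and Ptbp families, *Nova2* alone had an unadjusted p under 0.05, as 10.6% of all tested genes had (log2 fold change 0.15, SE 0.059, edgeR BH adjusted p = 0.426). The median of this list was 0.018, near that of all tested genes. Neither list held a gene called by edgeR or DESeq2.

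Sodium pumps, exchangers and the leak channel, which move sodium across the membrane, lay lower in KO in 11 of 12 genes, against 46.2% of all tested genes, with a median log2 fold change of −0.14. At an unadjusted p under 0.05, 4 were lower and none higher, against 5.75% and 4.87% of all tested genes. None was called by edgeR, and DESeq2 called 2, *Slc8a1* and *Nalcn*, both lower in KO as were 1.26% of the genes it adjusted. *Slc8a1*, a sodium-calcium exchanger, had 161, 123, 133 and 105 CPM in WT1 to WT4 and 87.6, 74.7, 69.0 and 91.7 CPM in KO1 to KO4, without overlap (log2 fold change −0.69, SE 0.12, edgeR BH adjusted p = 0.139, DESeq2 BH adjusted p = 7.39e-05). *Nalcn*, the sodium leak channel, had 88.4 ± 22.5 CPM in WT and 66.3 ± 13.9 CPM in KO (log2 fold change −0.43, SE 0.094, edgeR BH adjusted p = 0.241, DESeq2 BH adjusted p = 0.00875). Its partner *Unc80* had 77.4 ± 8.17 CPM in WT and 65.7 ± 4.70 CPM in KO, again without overlap, as in 1.12% of tested genes (log2 fold change −0.24, SE 0.076, edgeR BH adjusted p = 0.365). A second exchanger, *Slc8a2*, had −0.28 (SE 0.080, edgeR BH adjusted p = 0.333).

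**Figure D5:**
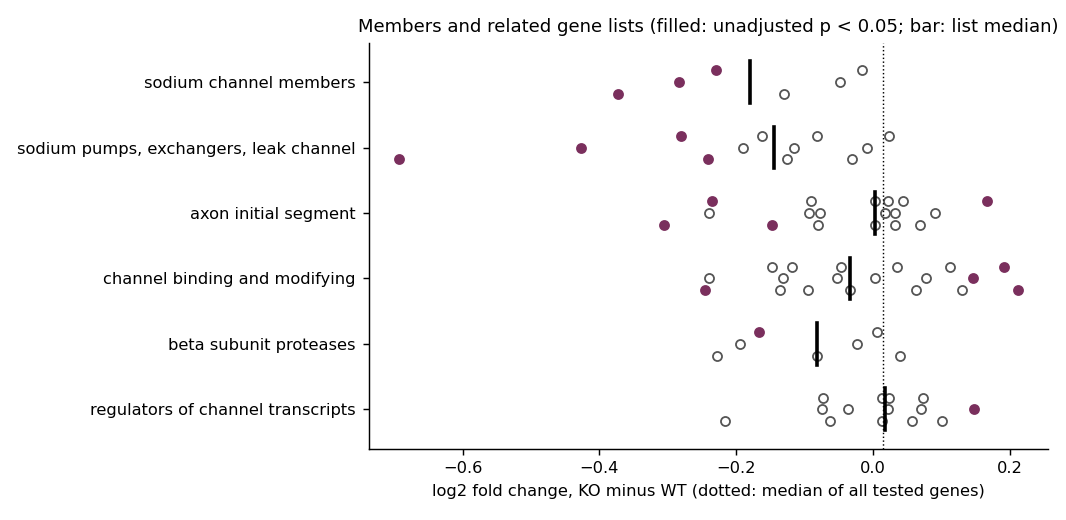
Log2 fold changes (KO minus WT) of the 6 tested sodium channel members and of the genes in 5 related lists, with 1 point per gene, filled at an unadjusted p under 0.05, a bar at each list's median and a dotted line at the median of all tested genes (0.015). The members' median was −0.18 and that of the pumps, exchangers and leak channel −0.14.

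Cell-type markers were read beside these values, and their part in them was not tested. The 8 neuronal markers summed to 4518 to 5263 CPM in WT and 4328 to 5219 CPM in KO, with 4 of 8 log2 fold changes below 0 and a median of −0.031. At an unadjusted p under 0.05, 1 of the 8, *Slc17a7*, was lower in KO, against 5.75% of all tested genes. *Tubb3*, neuronal beta-tubulin, had 259 to 1133 CPM in WT and 298 to 1348 CPM in KO, and *Slc17a7*, the vesicular transporter of excitatory neurons, had 107 to 139 and 65.1 to 118 CPM (log2 fold change −0.32, edgeR BH adjusted p = 0.390). The 11 interneuron markers summed to 241 to 364 CPM in WT and 264 to 427 CPM in KO, with a median log2 fold change of 0.23, and *Gad1*, which makes GABA, had 69.2 to 133 and 63.6 to 149 CPM. Of the 11, 8 had a log2 fold change above 0, and 1, against 4.87% of all tested genes, was higher in KO at an unadjusted p under 0.05. This was *Calb2*, named after its values were seen (log2 fold change 0.66, SE 0.17, edgeR BH adjusted p = 0.312, DESeq2 BH adjusted p = 0.0258). Markers of the labelled cell type were thus detected in every library, with those of other cells beside them.

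Astrocyte markers summed to 825 to 1498 CPM in WT and 771 to 1569 CPM in KO, with *Slc1a3* at 396 to 724 and 473 to 647 CPM, and 6 of 7 had a log2 fold change above 0 (median 0.076). Markers of oligodendrocyte precursors summed to 445 to 559.8 CPM in WT and 450.3 to 549.9 CPM in KO, with *Pdgfra* at 247 to 439 and 282 to 430.0 CPM (median log2 fold change −0.039). Dividing progenitors were present too, their markers summing to 114 to 250.2 CPM in WT and 197 to 303 CPM in KO, with *Mki67* at 26.0 to 88.1 and 61.0 to 109 CPM. Of these 6 progenitor markers 4 had a log2 fold change above 0 (median 0.15), and *Top2a*, named after its values were seen, was the only one with an unadjusted p under 0.05, as 10.6% of all tested genes had (log2 fold change 0.47, SE 0.19, edgeR BH adjusted p = 0.438). Microglia markers (3.14 to 13.3 CPM in WT, 2.61 to 30.8 CPM in KO) and those of endothelial cells and fibroblasts (6.53 to 33.2 and 10.8 to 20.9 CPM) were low. Of the microglia markers 5 were tested, 4 of them with a log2 fold change above 0 (median 1.29), and the median over endothelial and fibroblast markers was −0.12. *Csf1r* had at most 5.84 CPM and *Col1a1* at most 1.01 CPM.

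The genes whose log2 CPM followed each member most closely over the 8 libraries were found by Pearson's r, as a description without a test, since libraries share lanes and KO1 and WT1 stood apart from the rest. For *Scn2a* they were *Kcnq5*, a potassium channel gene (r = 0.986), *Dock4* (0.986) and *Scaper* (0.982), and over the 6 libraries without KO1 and WT1 r was 0.979, 0.963 and 0.966. For *Scn1a* they were *Tmf1* (0.995), *Eif3a* (0.989) and *Ptchd1* (0.986). *Scn3a* was followed by *Astn1* (0.987), *Ptprg* (0.986) and *Pcdhb20* (0.983), and *Scn3b* by the adhesion gene *Chl1* (0.995), *Mllt4* (0.994) and *Mdga2* (0.991). The closest to *Scn8a* were *Scel* (0.984), *Scd1* (0.982) and *Meg3* (0.974), and to *Scn2b* *Hsdl2* (0.965), *Thsd7a* (0.956) and *Fndc5* (0.955). No gene was closest to more than 1 member.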

How the data were processed

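The authors deposited raw read counts per Ensembl gene for 8 poly-A libraries. Per their methods and processing notes, reads were trimmed with Cutadapt 1.10, ribosomal reads discarded, the rest aligned to mm10 with STAR 2.5.3a, and unique alignments counted with HTSeq 0.6.1p1 in union mode. The labels and the methods differ on read length, and neither says whether counting used the strand. The methods describe 4 animals per genotype. For these cultures they describe a DESeq2 Wald test that took account of unwanted variation found by SVA, with p-values adjusted by the IHW method. No library duplicated another (chi-square per degree of freedom at least 20.4 for any pair).

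The whole table was tested with edgeR 4.0.16 (R 4.3.3): filterByExpr by genotype (16272 genes), TMM, 1 surrogate variable from svaseq (sva 3.50.0), robust quasi-likelihood F test, BH adjustment, threshold 0.05. A standard error is the absolute log2 fold change over the square root of F. CPM per kb uses the union of exons in GENCODE. Within-library ratios had 0.5 added to each count. Alternatives covered surrogate variables, lane, strain and replicate terms, scaling, filters, DESeq2 1.42.0, limma-voom (limma 3.58.1), each lane alone and each library left out. The fits of a lane alone and those without KO1 and WT1 together carried no surrogate variable. The edgeR fit without a surrogate variable was run on simulated counts whose changes were larger than any fitted for the members. That run does not cover the model with a surrogate variable or effects of the members' size. The 95% intervals of fold changes come from the fit and include the spread between libraries, whereas floors of 3 counts cover counting error only.

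The members, the lists (other sodium channel genes, axon initial segment, binding and modifying proteins, proteases, regulators, pumps and exchangers, and cell-type markers) and the rule for named genes were set with earlier results of these data known. Named in each list were up to 5 genes with the smallest unadjusted p under 0.05, the other sodium channel genes, 8 defining markers, and the 3 genes closest to each member by Pearson's r of log2 CPM (prior count 2). Some items that this rule names are not reported here.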

Additional observations from a re-analysis of the deposited data

Results flagged for a closer look

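Among 37 groups of 4 libraries examined for a value far from the other 3 by Dixon's ratio, 4 stood out, where chance gives about 1 in 20 groups, or 1.85. In 2 of them the library was KO1. *Scn1a* had 102 CPM in KO1 against 64.9 to 67.9 CPM in the other KO libraries, and *Scn3b* had 506 CPM in KO1 against 423 to 437 CPM. *Scn8a* had 207 CPM in KO4, below the 229 to 232 CPM of the other KO libraries. *Scn7a* had 0.13 CPM in WT4 and 0.218 to 0.230 CPM in WT1 to WT3, at 5 to 14 counts per library.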

How the results depend on the processing

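Over 23 alternative fits the log2 fold changes of *Scn1a* (−0.34 to −0.22), *Scn2a* (−0.43 to −0.31), *Scn3a* (−0.33 to −0.14) and *Scn3b* (−0.21 to −0.069) stayed below 0 in all 23. The count of members past the edgeR BH threshold was 0 throughout, whichever library was left out, except 1 with no filter on low counts and 1 with DESeq2, in both cases *Scn2a* (BH adjusted p = 0.0465 and 0.00211). Over all alternatives its BH adjusted p ran from 0.00211 to nearly 1, and without WT3 it was 0.0518. At an unadjusted p under 0.05, 3 members became 1 without the surrogate variable, 0 in lane A alone (2 libraries against 2), and 2 to 4 with a library left out. With KO1 and WT1 left aside, an alternative chosen after seeing the data, members without overlap went from 0 to 2.

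For *Scn8a*, the sign turned without KO1 and WT1 (0.0076), without KO1 (0.010) and without WT2 (0.019), and values with 1 library left out ran from −0.13 to 0.019. For *Scn2b* it turned with 2 surrogate variables (0.018), with library totals without TMM (0.023), in lane B alone (0.10), and without KO4 (0.042), WT2 (0.0065) or WT3 (0.040), the range being −0.086 to 0.042. For the log2 ratio of *Scn1a* to *Scn3a*, the difference turned to 0.063 in lane B alone, 0.00085 without KO4 and 0.053 without WT3 (range −0.15 to 0.053). That of *Scn2b* to *Scn3b* turned to −0.10 in lane A alone and ran from 0.043 to 0.24 with 1 library left out. The other ratios kept their direction in 12 of 12 alternatives. The difference for *Scn2a* to *Scn3a* was −0.26 in lane A and −0.030 in lane B, and ran from −0.20 to −0.068 with 1 library left out, −0.068 being without WT3. *Nuak1* could not be fitted under the filter of 100 counts in every library, and had −4.81 (edgeR BH adjusted p = 0.849) in lane A alone. The causes of these turns were not tested.

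The number of all tested genes past the threshold, 8, was 4 without the surrogate variable, 4 with 2, 14 with lane, 23 with strain label BK, 49 with no filter on low counts and 185 with DESeq2. It was 0 with at least 100 counts in every library, 0 in lane A alone, 99 in lane B alone, 3 without KO1 and WT1, and 3 to 91 with a library left out, 91 being without WT3. The cause was not tested. With the replicate block it was 3, whether added to the surrogate variable or put in its place, and *Scn2a* then had a log2 fold change of −0.34 or −0.36 (edgeR BH adjusted p = 0.299 or 0.565). The deviations of same-numbered libraries correlated at 0.800, 0.0122, 0.249 and 0.00225 for numbers 1 to 4. Only KO1 correlated best with its own number, WT1, and these are the libraries that stood apart, so the numbers were not taken as pairs. At the adjusted threshold the block changed no call on a member, and at an unadjusted p under 0.05 it left 2 members, *Scn3a* having an unadjusted p of 0.0552 or 0.0731 in edgeR, and 0.0518 with the strain term. With 4 libraries a group and log2 standard errors of 0.072 to 0.096, differences as small as those of *Scn8a* and *Scn2b* were not detectable. Exact permutation tests within a lane cannot go below p = 0.333.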
